A study of Mus musculus with 4 samples.

Results

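The mouse mitochondrial genome carries 37 annotated genes, and they are described here in ribosome pull-downs from cuprizone-fed and mock mice. They were taken as every row of the count tables whose symbol begins with mt-, which gave 37 of 55471 genes: 13 for proteins, 2 for ribosomal RNAs (rRNAs) and 22 for transfer RNAs (tRNAs). The pair of cuprizone libraries (replicates 1 and 2) was set against the pair of mock libraries (replicates 1 and 2). All 4 came from mice of genotype GFAP-Cre+/- Rpl22HA/wt, labelled brain, astrocytes, 3 weeks and the same batch. Per the design text of the series, the mice were males of 8 to 9 weeks, cuprizone, a copper chelator that leads to loss of oligodendrocytes and myelin, was given at 0.2% by weight in chow, controls of matched age ate normal chow, and RNA was pulled down from the corpus callosum. That text names week 5, week 5.5 or week 7 for collection. The label of 3 weeks does not match it, and is used here. The GFAP promoter drives Cre, Cre switches 1 Rpl22 allele to a form with an HA tag, and an antibody against HA then recovers cytosolic ribosomes with their RNA. Each library has a biological replicate number in the labels, which do not state how many mice it holds or which GFAP-Cre line was used, so a p-value here reflects only how these 4 libraries vary. No input RNA from before the pull-down was analysed here.

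Both strands of the mitochondrial genome are transcribed into long precursors, and the tRNAs that lie between most of the other genes are cut out to free them. The protein genes encode subunits of respiratory complexes I, III and IV and of ATP synthase (complex V), and the rRNAs build the mitochondrial ribosome, which translates these messages inside the organelle. Rpl22, the tagged protein, belongs to the cytosolic ribosome.

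Of the 37 genes, 17 had at least 1 count in some library and 20 had none in any. Only 9 had more than 100 counts over the 4 libraries: the rRNA genes mt-Rnr1 and mt-Rnr2 and the protein genes mt-Nd1, mt-Nd2, mt-Nd4, mt-Nd5, mt-Nd6, mt-Cytb and mt-Co1. Another 7 had 1 to 20 counts, and mt-Tp, the tRNA for proline, had 27. By class, 11 of 13 protein genes, 2 of 2 rRNA genes and 4 of 22 tRNA genes had counts. By strand, 13 of 28 plus-strand genes and 4 of 9 minus-strand genes had counts. The plus strand carries 12 of the protein genes, the rRNA genes and 14 tRNA genes; mt-Nd6 and 8 tRNA genes lie on the minus strand.

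The protein genes with few or no counts were neighbours on the map. The 6 genes mt-Co2, mt-Atp8, mt-Atp6, mt-Co3, mt-Nd3 and mt-Nd4l follow each other with only tRNA genes between them. Together they span 2998 bases of gene and had 1 count in the cuprizone libraries and 23 in the mock libraries. The 5 protein genes mt-Nd1, mt-Nd2, mt-Nd5, mt-Nd6 and mt-Cytb, with 5482 bases of gene, had 844 counts in the cuprizone libraries and 9145 in the mock libraries. Per kilobase of gene, the run of 6 had 0.0153 and 0 CPM (the count scaled to an equal library total) in cuprizone replicates 1 and 2 and 0.106 and 0.252 CPM in mock replicates 1 and 2. The other 5 had 3.29 and 3.45 CPM per kilobase in cuprizone libraries and 38.2 and 38.8 in mock libraries. The low run was thus present in both groups and in all 4 libraries.

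The same run has a near-identical copy in the nuclear genome. In GENCODE M21 on GRCm38, 7 annotated unprocessed pseudogenes lie at chr1:24611535-24616197 on the minus strand, and their sequences matched positions 6381 to 11042 of the mitochondrial genome in the same order. Over 4149 bases compared, 7 differed, an identity of 99.8%. The spacing of Gm28438 and Gm10222 on chromosome 1 differs from that of their matches on the mitochondrial genome. A difference in length thus lies between them, outside the bases compared. All bases of the 6 genes above lie between the outer ends of the match, as do 31.8% of mt-Co1 and 63.6% of mt-Nd4, and none of the other protein or rRNA genes. For mt-Co2, Gm28661 matched at 681 of 681 bases compared. No pseudogene is annotated opposite most of mt-Atp8, which lies between 2 that match its neighbours, so that part was not compared. Each of the 635 words of 50 bases in mt-Co2 was also found in a transcript of a nuclear gene. The share of such words was 99.5% for mt-Atp6, 99.9% for mt-Co3, 98.0% for mt-Nd3, 98.8% for mt-Nd4l, 62.2% for mt-Nd4, 51.1% for mt-Co1, 8.19% for mt-Nd2, 7.61% for mt-Nd5, 1.04% for mt-Rnr2 and 0 for mt-Nd1, mt-Nd6, mt-Cytb and mt-Rnr1. It was also 0 for mt-Atp8 (0 of 155 words), which differs in this share from the other 5 genes of the run. Like mt-Nd4l, mt-Atp8 had no counts in any library. Only annotated transcripts were searched, and none is annotated opposite most of mt-Atp8. A share of 0 there does not tell whether the nuclear copy holds the gene. How reads that map to several places were counted is not given in the sources used here, so the part of this match in the low counts was not tested.

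The sequences at the edge of the match, at the only other mismatch among the bases compared and at a stretch without one are shown. They mark where the nuclear copy can and cannot be told from the mitochondrial gene. They were read from the GENCODE M21 transcripts, run 5′ to 3′ along the strand of the gene, and have in capitals the bases that differ. The mitochondrial stretches are chrM:6381-6440 (mt-Co1), chrM:9459-9518 (mt-Nd3) and chrM:7013-7072 (mt-Co2), all on the plus strand. The pseudogene stretches are chr1:24616138-24616197 (Gm29216), chr1:24613060-24613119 (Gm28438) and chr1:24615506-24615565 (Gm28661), all on the minus strand.
mt-Co1: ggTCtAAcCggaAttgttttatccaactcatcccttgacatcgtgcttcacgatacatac
Gm29216: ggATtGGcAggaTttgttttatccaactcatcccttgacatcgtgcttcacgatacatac
mt-Nd3: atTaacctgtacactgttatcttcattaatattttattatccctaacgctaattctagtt
Gm28438: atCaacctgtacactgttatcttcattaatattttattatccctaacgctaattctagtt
mt-Co2: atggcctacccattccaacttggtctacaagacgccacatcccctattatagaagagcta
Gm28661: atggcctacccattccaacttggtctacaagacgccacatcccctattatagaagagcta

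With positions counted along the mitochondrial genome, and the mitochondrial base before the position and the pseudogene's base after it, the substitutions in mt-Co1 were T6383A, C6384T, A6386G, A6387G, C6389A and A6393T, and the substitution in mt-Nd3 was T9461C. The mt-Co1 substitutions all lie at the first bases of Gm29216, and its later bases matched without a difference. mt-Nd3 had 14 counts in mock libraries, the most of the 6 genes in the run, and 0 in cuprizone libraries. The part of the T9461C mismatch in these counts was not tested.

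The chromosome 1 pseudogenes had few counts as well. Their sum was 1 and 1 count in cuprizone replicates 1 and 2 and 39 and 34 in mock replicates 1 and 2. The ratio of mock over cuprizone was 38.5, with an exact 95% counting interval of 10.3 to 324. Outside that stretch, 8 further nuclear genes share words of 50 bases with a member; they had 2 counts in cuprizone and 28 in mock libraries. Of the chromosome 1 pseudogenes only Gm28661 was tested, having passed the filter through the mock libraries, with 0 and 0.0420 CPM in cuprizone and 0.498 and 0.472 CPM in mock libraries. Its log2 fold of -4.23 (SE 2.00) did not pass (edgeR adjusted p = 0.451).

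**Figure D1:**
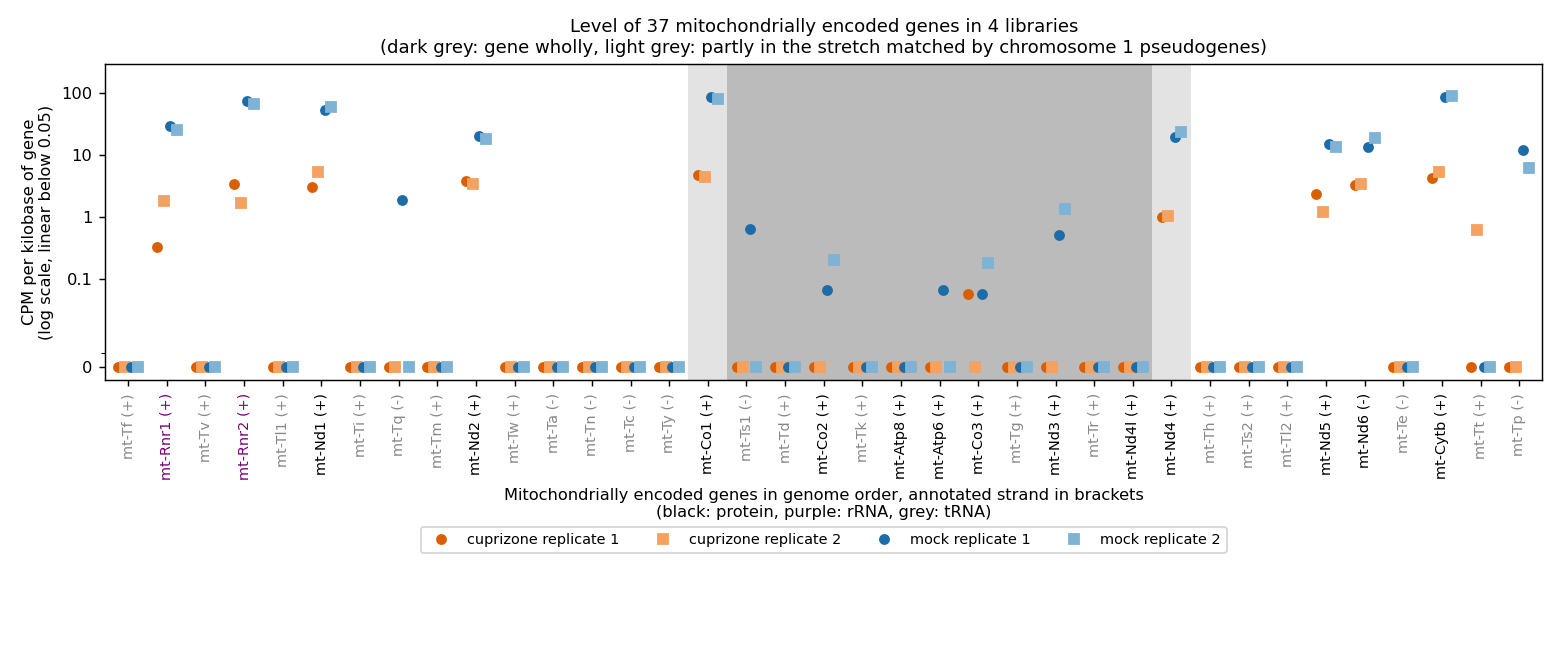
Level of each of the 37 genes in genome order, in CPM per kilobase of gene on a log scale that is linear below 0.05, with a point for each library. Orange points (cuprizone) lie below blue points (mock) at each gene with more than 100 counts, and the 6 protein genes on dark grey lie at or below 1.4 in all libraries.

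The cuprizone libraries held far less RNA of the mitochondrial genome than the mock libraries. All members together had 713 and 753 counts in cuprizone replicates 1 and 2, and 11427 and 10658 in mock replicates 1 and 2. As a level this was 32.7 and 31.6 CPM in cuprizone and 517 and 503 CPM in mock libraries, so both cuprizone values lay far under both mock values. The log2 ratio of the means was -3.99 for all members, -3.78 for the protein class and -4.77 for the rRNA class. A sum over members gets no p here, and an exact 2-sided permutation of 2 against 2 libraries could not go below 0.333. These are pull-downs of cytosolic ribosomes without analysed input RNA, so fewer cells or organelles and less RNA in each cannot be told apart. Nor can these be told apart from a different recovery of mitochondrial RNA in the pull-down, and none was tested.

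Of 15816 genes that passed the abundance filter, edgeR's quasi-likelihood test called 13 (0.0822%) at a Benjamini-Hochberg adjusted p under 0.05, of which 8 (0.0506%) were lower and 5 (0.0316%) higher in cuprizone libraries. The filter kept 9 of the 37 members, 8 of which also passed in the cuprizone pair alone; mt-Rnr1 passed through the mock pair. The test called 5 of those 9, all lower: mt-Rnr2, mt-Nd1, mt-Nd4, mt-Cytb and mt-Co1. All 9 had a negative fold with an unadjusted p under 0.05, as did 7.04% of all genes tested. In each of the 9 both cuprizone libraries lay below both mock libraries, which held for 18.9% of all genes tested, while the opposite order held for 25.7%. DESeq2 called all 9, among 715 of the 15816 genes, and limma-voom 4, among 47. The calls among members changed with the library left out, as did the calls over all genes. mt-Nd1 and mt-Nd4 lost theirs without mock replicate 1 and without mock replicate 2.

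Positions of genes below are on GRCm38, and of the 9 tested genes all but mt-Nd6 lie on the plus strand. Complex I passes electrons from NADH to ubiquinone, and 7 of its subunits are encoded in the mitochondria. mt-Nd1 (chrM:2751-3707), a membrane subunit near the site where ubiquinone binds, stood at 2.93 and 5.16 CPM in cuprizone and 51.9 and 58.1 CPM in mock libraries. Its log2 fold was -3.83 (SE 0.37; edgeR adjusted p = 0.0432). mt-Nd4 (chrM:10167-11544), a proton-pumping subunit, had 1.37 and 1.43 CPM in cuprizone and 26.7 and 32.7 CPM in mock libraries. Its log2 fold was -4.47 (SE 0.39; edgeR adjusted p = 0.029). Both genes fell, and the groups did not overlap; each missed the threshold without mock replicate 1 (edgeR adjusted p = 0.0702 for mt-Nd1 and 0.0643 for mt-Nd4) and without mock replicate 2 (0.174 for each).

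The other tested complex I genes were not called. mt-Nd2 (chrM:3914-4951), also a proton-pumping subunit, had 4.03 and 3.53 CPM in cuprizone and 20.9 and 18.7 CPM in mock libraries. The log2 fold was -2.46 (SE 0.39; edgeR adjusted p = 0.121). mt-Nd5 (chrM:11742-13565), the most distal pumping subunit, had 4.40 and 2.22 CPM in cuprizone and 28 and 24.7 CPM in mock libraries. The log2 fold was -3.06 (SE 0.45; edgeR adjusted p = 0.113). mt-Nd6 (chrM:13552-14070), a small membrane subunit and the only protein gene on the minus strand, had 1.74 and 1.76 CPM in cuprizone and 7.15 and 9.76 CPM in mock libraries. The log2 fold was -2.34 (SE 0.56; edgeR adjusted p = 0.2). In all 3 the groups were apart, with mt-Nd5 differing most between the cuprizone libraries. Of the remaining complex I subunits, mt-Nd4l had no counts in any library, and mt-Nd3 had 0 and 0 counts in cuprizone and 4 and 10 in mock libraries, at least 4.92-fold lower in cuprizone with 3 counts over the group as the limit and the mock counts taken as exact.

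mt-Cytb (chrM:14145-15288), the cytochrome b of complex III, had 4.95 and 6.21 CPM in cuprizone and 101 and 102 CPM in mock libraries. Its log2 fold was -4.25 (SE 0.25; edgeR adjusted p = 0.0071). mt-Co1 (chrM:5328-6872), the catalytic subunit of cytochrome oxidase (complex IV), had 7.47 and 6.84 CPM in cuprizone and 134 and 124 CPM in mock libraries. Its log2 fold was -4.25 (SE 0.22; edgeR adjusted p = 0.00528). These genes fell by about the same factor, mean CPM being 18.2-fold lower for mt-Cytb and 18.1-fold lower for mt-Co1, and both kept the call in all 15 alternatives run.

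The other complex IV and complex V subunits lie in the run with the nuclear copy. mt-Co2, which takes electrons from cytochrome c, had 0 and 0 counts in cuprizone and 1 and 3 in mock libraries. mt-Co3, a structural subunit, had 1 and 0 counts in cuprizone and 1 and 3 in mock libraries, a ratio of mock over cuprizone of 4.22 with a counting interval of 0.417 to 208. mt-Atp6, the proton channel subunit of ATP synthase, had 0 and 0 counts in cuprizone and 1 and 0 in mock libraries, and mt-Atp8 had none in any. With 3 counts over the cuprizone group as the limit, mt-Co2 was at least 1.41-fold lower there, taking its 4 mock counts as exact. That limit leaves out the counting error of so few mock counts, so it does not show mt-Co2 to be lower. The counts of mt-Atp6 and mt-Atp8 were at or under that limit in both groups, and the interval of mt-Co3 holds 1, so no difference was detectable for these 3 at this depth.

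mt-Atp8 also shares bases with mt-Atp6 within the mitochondrial genome, and its whole gene (chrM:7766-7969, plus strand) is shown for that overlap, with the 43 shared bases in capitals. A read over those bases belongs to both genes, and how the authors' counting treated such reads is not given in the sources used here.
mt-Atp8: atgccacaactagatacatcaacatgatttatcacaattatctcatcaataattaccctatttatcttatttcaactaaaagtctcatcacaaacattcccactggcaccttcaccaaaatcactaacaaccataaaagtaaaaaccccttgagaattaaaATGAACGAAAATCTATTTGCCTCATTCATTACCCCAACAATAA

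Both rRNA genes were far lower in counts in the cuprizone libraries, and mt-Rnr2 was called. mt-Rnr2 (chrM:1094-2675), the 16S rRNA of the large mitochondrial subunit, had 5.40 and 2.69 CPM in cuprizone and 117 and 107 CPM in mock libraries. Its log2 fold was -4.87 (SE 0.37; edgeR adjusted p = 0.0184), and the call held in all 15 alternatives. mt-Rnr1 (chrM:70-1024), the 12S rRNA of the small subunit, had 0.321 and 1.72 CPM in cuprizone and 28.2 and 24.1 CPM in mock libraries. The log2 fold was -4.72 (SE 0.76; edgeR adjusted p = 0.124). The cuprizone libraries disagreed on the 2 rRNAs: mt-Rnr2 had 118 and 64 counts and mt-Rnr1 7 and 41 counts in cuprizone replicates 1 and 2. The ratio of mt-Rnr2 to mt-Rnr1 counts was therefore 16.9 and 1.56 in cuprizone and 4.15 and 4.46 in mock libraries, and the cuprizone values lay on either side of the mock values. mt-Rnr1 passed the filter only through the mock libraries, which fixed its direction. Its log2 fold ran from -6.40 to -3.98 over the alternatives. These ends came from the fits that kept only cuprizone replicate 1 (-6.40) or only cuprizone replicate 2 (-3.98). A fit on a lone cuprizone library cannot show the disagreement of 7 against 41 counts, so such fits add no support for mt-Rnr1.

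The tRNA genes, of 59 to 75 bases, were almost without counts: 0 and 1 in cuprizone libraries and 22 and 9 in mock libraries. mt-Tp, the tRNA for proline on the minus strand, gave most of these, with 0 and 0 counts in cuprizone and 18 and 9 in mock libraries, at least 9.49-fold lower in cuprizone by the same limit. mt-Tq, the tRNA for glutamine, had 3 counts and mt-Ts1, a tRNA for serine, 1 count, all in mock replicate 1, and both lie on the minus strand. mt-Tt, the tRNA for threonine and the plus-strand neighbour of mt-Tp, had 1 count, in cuprizone replicate 2. The other 18 tRNA genes had none, among them 4 of the 5 in the stretch matched on chromosome 1. The label of polyA RNA and the short genes limit what a count of 0 shows.

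The 2 tRNA genes next to each other at the end of the gene map, mt-Tp (chrM:15356-15422, minus strand) and mt-Tt (chrM:15289-15355, plus strand), share no base, and mt-Tq (chrM:3772-3842, minus strand) shares the 3 bases in capitals with mt-Ti on the other strand. They are printed because they are the tRNA genes that the few counts turn on. The strand setting of the counting is not given in the sources used here, so reads of either strand may stand behind these values.
mt-Tp: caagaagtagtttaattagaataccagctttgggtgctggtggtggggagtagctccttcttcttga
mt-Tt: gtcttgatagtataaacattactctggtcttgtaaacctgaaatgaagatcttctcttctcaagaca
mt-Tq: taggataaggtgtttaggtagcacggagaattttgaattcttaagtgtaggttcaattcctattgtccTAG

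**Figure D2:**
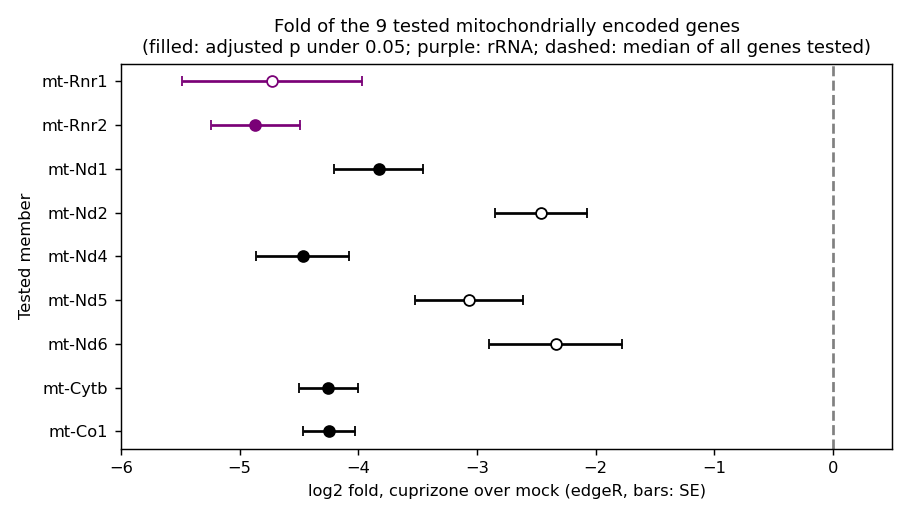
Log2 fold of cuprizone over mock for the 9 tested members, with bars of 1 SE on each side and filled points where the edgeR adjusted p was under 0.05. The folds run from -4.87 for mt-Rnr2 to -2.34 for mt-Nd6, against a median of 0.00 for all genes tested.

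The make-up of the mitochondrial counts differed between the groups. The rRNA genes made up 17.5% and 13.9% of the mitochondrial counts in cuprizone libraries and 28.1% and 26.2% in mock libraries. The protein genes made up 82.5% and 85.9% in cuprizone libraries and 71.7% and 73.7% in mock libraries. Both shares were apart between the groups by more than the exact 95% counting intervals of the single libraries, which do not cover the spread between mice. The molecule is labelled as polyA RNA, and the part of poly(A) tails in the shares of classes and single genes was not tested. Among the 11 members with at least 10 counts, 2 had a larger share in cuprizone libraries by that measure, 1 had a smaller share and 8 had intervals that met.

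The larger shares were those of mt-Nd2 and mt-Nd6. mt-Nd2 made up 12.3% and 11.2% of mitochondrial counts in cuprizone and 4.05% and 3.72% in mock libraries. mt-Nd6 made up 5.33% and 5.58% in cuprizone and 1.38% and 1.94% in mock libraries. The smaller share was that of mt-Rnr2, with 16.5% and 8.50% in cuprizone and 22.6% and 21.4% in mock libraries, and its cuprizone values were themselves far apart. mt-Co1, the most counted member, had a share of 22.9% and 21.6% in cuprizone and 26.0% and 24.7% in mock libraries, with intervals that met. By complex, the 7 complex I genes made up 44.3% and 44.6% of the mitochondrial counts in cuprizone libraries and 26.1% and 28.7% in mock libraries. Its members did not move alike. Beside mt-Nd2 and mt-Nd6, mt-Nd5 had a larger share in both cuprizone libraries, with intervals that met. The share of mt-Nd4 was 4.21% and 4.52% in cuprizone and 5.17% and 6.50% in mock libraries. For mt-Nd1 the cuprizone shares lay on either side of the mock shares. The intervals of complexes IV and V met.

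By annotated strand the shares differed too, and in cuprizone libraries the minus-strand counts were those of mt-Nd6 alone. The strand setting of the counting is not given, so reads over any base of mt-Nd6 may come from either strand. Minus-strand genes made up 5.33% and 5.58% of mitochondrial counts in cuprizone libraries and 1.58% and 2.03% in mock libraries. The ratio of counts of mt-Cytb to those of mt-Nd6, the nearest protein gene and on the opposite strand, was 2.84 and 3.52 in cuprizone and 14.2 and 10.4 in mock libraries. A ratio of plus-strand genes differed likewise, mt-Co1 to mt-Nd2, at 1.85 and 1.94 in cuprizone and 6.41 and 6.66 in mock libraries, while mt-Nd6 to mt-Nd5, overlapping genes on opposite strands, stood at 0.396 and 0.793 in cuprizone and 0.255 and 0.396 in mock libraries, so the groups met. The first 2 ratios hold mt-Nd6 and mt-Nd2, already named for their larger shares. mt-Nd5 and mt-Nd6 end on top of each other, and a read over the shared bases cannot be given to either strand without a strand setting. Their last 60 bases (chrM:13506-13565, plus strand, for mt-Nd5 and chrM:13552-13611, minus strand, for mt-Nd6) show the overlap of 14 bases in capitals.
mt-Nd5: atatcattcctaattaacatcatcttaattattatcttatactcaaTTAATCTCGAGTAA
mt-Nd6: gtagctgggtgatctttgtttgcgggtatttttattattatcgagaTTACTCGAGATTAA

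**Figure D3:**
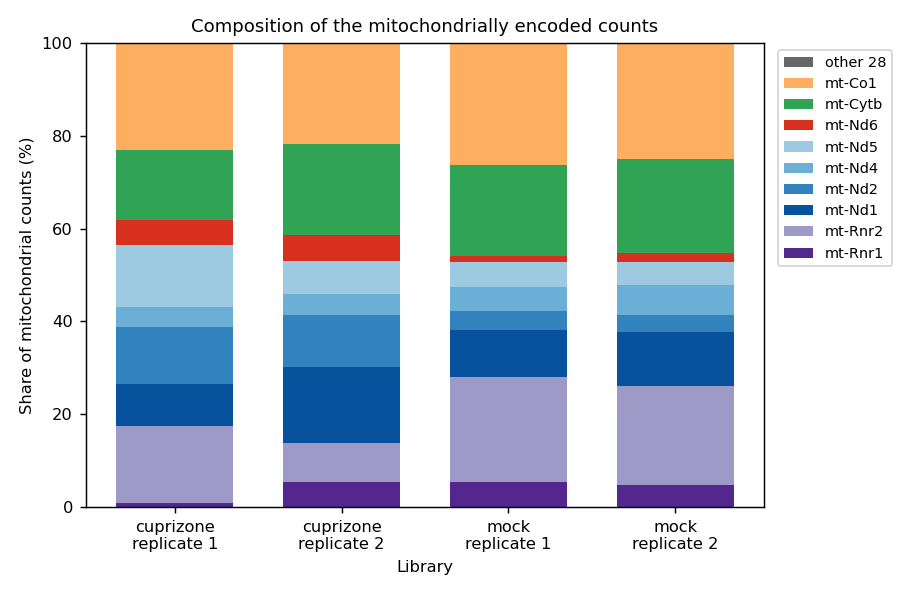
Share of the mitochondrially encoded counts held by each of the 9 most counted members, in percent, with a stacked bar for each library. mt-Nd2 and mt-Nd6 (red) fill more of both cuprizone bars, and the rRNA genes at the base fill less.

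The 9 genes were ordered by mean level per kilobase of gene. In cuprizone libraries the order was mt-Cytb (4.88 ± 0.783 CPM per kilobase, SD, n = 2), mt-Co1 (4.63 ± 0.285), mt-Nd1 (4.23 ± 1.65), mt-Nd2 (3.64 ± 0.344), mt-Nd6 (3.38 ± 0.0309), mt-Rnr2 (2.56 ± 1.21), mt-Nd5 (1.82 ± 0.842), mt-Rnr1 (1.07 ± 1.04) and mt-Nd4 (1.02 ± 0.0273), and the ranges of all 8 pairs of neighbours overlapped. In mock libraries it was mt-Cytb (88.8 ± 0.0975), mt-Co1 (83.7 ± 4.56), mt-Rnr2 (70.9 ± 4.23), mt-Nd1 (57.5 ± 4.59), mt-Rnr1 (27.4 ± 3.02), mt-Nd4 (21.6 ± 3.05), mt-Nd2 (19.1 ± 1.55), mt-Nd6 (16.3 ± 3.56) and mt-Nd5 (14.4 ± 1.29). The ranges of neighbours in that order overlapped in 3 of 8 pairs, those from mt-Nd4 downwards.

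The nuclear genes that complete these complexes had folds near 0 by comparison. The 75 tested were nuclear genes for respiratory chain and ATP synthase subunits, with Atpif1, an inhibitor of ATP synthase, listed under complex V. Of these 75, edgeR, DESeq2 and limma-voom each called 0, while 2 were lower at an unadjusted edgeR p under 0.05, against 7.04% of all genes tested. Their median log2 fold was -0.29 and their range -0.67 to 0.31, against a median of 0.00 over all genes tested, and 67 of 75 folds were negative, as were 7898 of 15816 over all genes tested. By complex the medians were -0.28 for complex I (36 genes), -0.19 for complex II (4), which has no mitochondrially encoded subunit, -0.31 for complex III (9), -0.29 for complex IV (11) and -0.31 for complex V (15). Cox4i1, a nuclear subunit of the complex that mt-Co1 belongs to, had 942 and 768 CPM in cuprizone and 1120 and 954 CPM in mock libraries, with cuprizone replicate 1 just under mock replicate 2; its log2 fold was -0.35 (SE 0.16; edgeR adjusted p = 0.432). Ndufv2, of complex I, had a log2 fold of -0.16 (SE 0.14; edgeR adjusted p = 0.721) and Uqcrc1, of complex III, 0.15 (SE 0.15; edgeR adjusted p = 0.773).

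Factors that copy, transcribe, cut and stabilise mitochondrial RNA were measured as well. Of 28 tested, edgeR, DESeq2 and limma-voom each called 0, and 3 were higher at an unadjusted edgeR p under 0.05, as were 5.73% of all genes tested. Their median log2 fold was 0.11, in a range of -0.50 to 1.22. Rexo2, a mitochondrial oligoribonuclease and the most abundant of them, had 176 and 110 CPM in cuprizone and 141 and 159 CPM in mock libraries, so the groups overlapped. As a list these factors took 0.0952% and 0.0955% of counts in cuprizone and 0.0815% and 0.0851% in mock libraries.

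**Figure D4:**
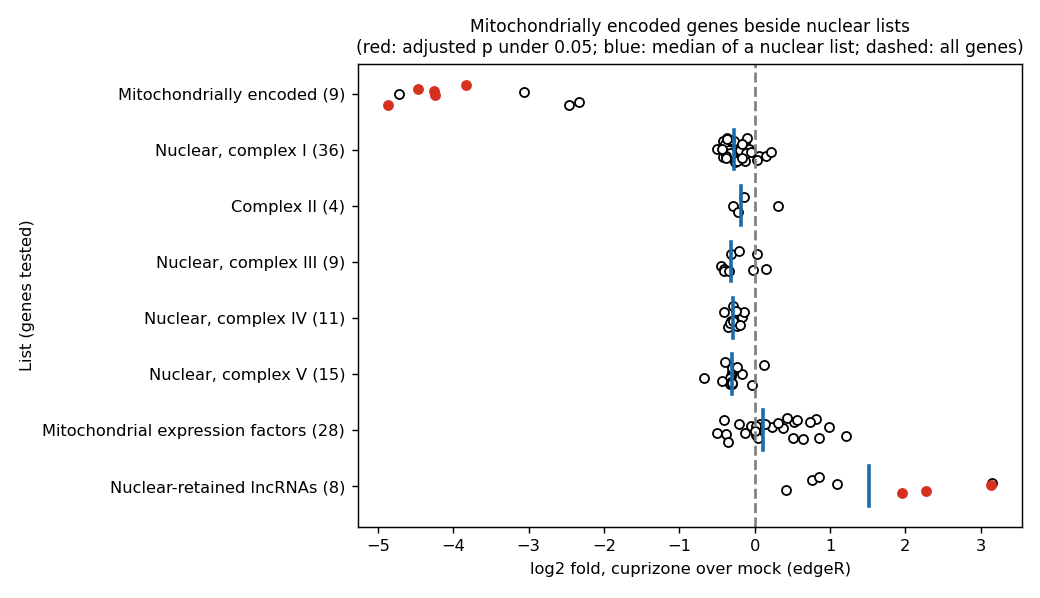
Log2 fold of cuprizone over mock for each tested gene of the mitochondrial genome and of 7 nuclear lists, with red points where the edgeR adjusted p was under 0.05 and blue bars at the medians of the nuclear lists. The 9 mitochondrially encoded genes lie at or below -2.34, while the nuclear subunits lie between -0.67 and 0.31.

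Other measures are given here, and their part in the mitochondrial result was not tested. Some, such as the sums of astrocyte markers and of RNAs held in the nucleus, were apart between the groups. Others, such as the sum of oligodendrocyte markers and Rpl22, overlapped. Over all 15816 genes tested, edgeR called 8 lower and 5 higher in cuprizone libraries, DESeq2 451 and 264, and limma-voom 38 and 9. At an unadjusted edgeR p under 0.05, 7.04% of all genes tested were lower and 5.73% higher. Long RNAs held in the nucleus took 0.0952% and 0.0944% of counts in cuprizone and 0.0231% and 0.0212% in mock libraries, and of 8 tested edgeR called 3, all higher (Malat1, Meg3 with a log2 fold of 2.27 and Snhg11 with 3.13). The 10 astrocyte markers took 0.530% and 0.570% in cuprizone and 0.899% and 0.858% in mock libraries; edgeR called 0 of 10, against 5 by DESeq2 and 2 by limma-voom, and 6 were lower at an unadjusted edgeR p under 0.05; the gene whose promoter drives Cre, Gfap, had a log2 fold of -1.20 (SE 0.15; edgeR adjusted p = 0.0838). The 10 neuron markers took 1.45% in each of the cuprizone libraries and 1.27% and 1.31% in mock libraries. Most of that sum was Snap25, with 9900 and 10008 CPM in cuprizone and 8292 and 8297 CPM in mock libraries. Of the neuron list edgeR and limma-voom called 0, DESeq2 called 2 lower and 1 higher, and 3 were lower and 1 higher at an unadjusted edgeR p under 0.05. The 10 oligodendrocyte markers took 0.999% and 1.32% in cuprizone and 1.27% and 1.48% in mock libraries; edgeR and limma-voom called 0, DESeq2 called 1 lower and 1 higher, and 4 were lower and 1 higher at an unadjusted edgeR p under 0.05. The 10 microglia markers held 449 and 487 counts in cuprizone and 701 and 983 in mock libraries, 9 of 10 with negative folds; edgeR and limma-voom called 0, DESeq2 called 4, and 5 were lower at an unadjusted edgeR p under 0.05. Aif1 and Cx3cr1 stood at 0 in both cuprizone libraries, so they passed the filter through the mock libraries, which fixed their direction. C1qb, C1qc and Csf1r, the rest of those 5, had 0.0458, 0.0458 and 0.0916 CPM in cuprizone replicate 1. In cuprizone replicate 2 they had 0.462, 0.588 and 0.378 CPM, so those 5 had few or no counts in that group. The 10 endothelial markers held 158 and 313 counts in cuprizone and 376 and 411 in mock libraries; of the 4 tested, the 3 tools called 0 and 1 was lower at an unadjusted edgeR p under 0.05. Rpl22, counted over its tagged and untagged alleles together, had 42.2 and 27.5 CPM in cuprizone and 40.6 and 40.1 CPM in mock libraries (edgeR adjusted p = 0.767). Library totals ran from 21209517 to 23822620 counts.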

How the data were processed

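The authors deposited 1 table per library of raw counts per Ensembl gene, with no normalization. Per the submitters' processing notes, FastQC 0.11.9, STAR 2.5.4b and featureCounts 1.6.0 were used with GRCm38 (mm10); which annotation release and strand setting were used, and how reads with several matches were counted, is not given in the sources used here. Per the labels' protocols, RNA was column-purified after the pull-down, only samples whose RNA integrity number exceeded 8 went on, and a low-input kit was used; the molecule is labelled as polyA RNA.

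Symbols were found for 55144 of 55471 ids. CPM was computed on library totals. Genes were tested across the whole table in R 4.3.3 with edgeR 4.0.16 (low counts removed with filterByExpr on the groups, TMM factors of 0.974 to 1.03, glmQLFit with robust estimation and default dispersions, 2-sided glmQLFTest, Benjamini-Hochberg adjustment, threshold 0.05), on 2 cuprizone and 2 mock libraries with no block or covariate. Standard errors (SE) were taken as the absolute log2 fold divided by the square root of F. The fit was tested on simulated data. DESeq2 1.42.0 and limma 3.58.1 served as alternatives, beside other scalings, filters and left-out libraries. Positions, strands and sequences come from GENCODE M21 on GRCm38. Words of 50 bases were searched on both strands of all its transcripts, which are not the whole genome.

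The members, the gene lists and the rules were chosen with earlier results of these data known. Members with a mean of at least 1 CPM in a group are given by library. Of each other list, the most abundant tested gene or up to 3 called genes could be named. Aif1, Cx3cr1, C1qb, C1qc and Csf1r were named after their values were seen. The list of mitochondria-like pseudogenes held 8 symbols, of which Gm29215 lies on chromosome Y, did not match and had no counts. A list of 10 RNAs without poly(A) tails, 8 of which matched, had 0 counts in cuprizone and 10 in mock libraries. Of the lists' symbols, Atp5pb, Prorp and Fastkd4 were not matched either.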

Additional observations from a re-analysis of the deposited data

How the results depend on the processing

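All 9 tested members kept a negative fold in all 15 alternatives, and mt-Rnr2, mt-Cytb and mt-Co1 were called in each of them. mt-Nd1 was called in 12, mt-Nd4 in 11, mt-Rnr1 in 6, mt-Nd5 in 5, mt-Nd2 in 2 and mt-Nd6 in 1. With no filter beyond 1 count in all, edgeR called 8 members among 191 genes (146 lower, 45 higher); at a mean CPM of at least 1 it called 68 genes (54 lower, 14 higher). DESeq2 called 9 members among 715 genes (451 lower, 264 higher), limma-voom 47 genes (38 lower, 9 higher), and bias-adjusted dispersions 51 genes (42 lower, 9 higher). Leaving out 1 library gave 3 to 7 members and 5 to 123 genes (3 to 71 lower, 2 to 52 higher): 123 genes without cuprizone replicate 1, 26 without cuprizone replicate 2, and 5 without either mock replicate 1 or mock replicate 2. The lone library left in a group was assumed to vary like the pair of the other group. For mt-Rnr1 the fits on a lone cuprizone library leave out the disagreement between the cuprizone libraries. Its calls in those fits are thus no further support. With the replicate number as a block, 3 members and 5 genes lower in cuprizone were called, and mt-Nd1 and mt-Nd4 each had an edgeR adjusted p of 0.0578. Same-numbered libraries did not deviate together over the genes as a whole (r = 0.0021 across 15816 genes, which are not independent replicates). An effect shared by few genes would not show in this measure. With TMM-scaled totals the log2 ratio was -4.06 for all members and -3.85 for the protein class. Dividing the whole-gene counts of mt-Co1 and mt-Nd4 by only the bases outside the stretch matched on chromosome 1, chosen after seeing the data, raises their level per kilobase by construction and tests nothing. The tRNA class had no ratio without cuprizone replicate 2, since no count was left in cuprizone. The causes were not tested. With 2 libraries a group and 713 and 753 mitochondrial counts in the cuprizone libraries, depth limits what the folds of single members can show.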
